A study of Mus musculus with 8 samples.

Results

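The cone phototransduction cascade was followed through 10 genes: the cone opsins Opn1sw and Opn1mw, the cone transducin subunits Gnat2, Gnb3 and Gngt2, the cone phosphodiesterase subunits Pde6c and Pde6h, the cone channel subunits Cnga3 and Cngb3, and the cone arrestin Arr3. They were taken from the table by symbol, and all 10 were found among the 24860 genes of the table. Expression was measured by RNA sequencing in 8 libraries of mouse retina, which the labels annotate to retinal ganglion cells, the output neurons of the retina. The labels do not say whether cells were enriched before extraction, and the levels below are those of the RNA as extracted. In the 4 AAV2-shCX36 libraries the retina had received AAV2, an adeno-associated viral vector, carrying a hairpin that targets connexin 36, which forms gap junctions between retinal neurons. In the 4 AAV2-scramble libraries the vector carried a scrambled hairpin instead. The labels give no strain, age, time after injection or injury, and nothing ties a library to an individual mouse. The p-values therefore reflect library-to-library spread, which may be partly technical.

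Cones are the photoreceptors of daylight and colour vision. Light isomerises the chromophore of an opsin, the opsin activates transducin, and transducin relieves the inhibition of a phosphodiesterase that breaks down cyclic GMP. The fall in cyclic GMP closes the cyclic nucleotide-gated channel and hyperpolarises the cell, and arrestin then binds the phosphorylated opsin and ends the signal. Rods run the same cascade with their own paralogs for most of the steps. Most mouse cones hold both opsins, in a proportion that varies across the retina, and cones contact each other and neighbouring rods through gap junctions that contain connexin 36.

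Levels were given in FPKM, a fragment count scaled by gene length and by the fragments of the library. The gene lengths used are not given, and levels of different genes set side by side below depend on them. Library FPKM summed to between 282721 and 294055. The step between low values corresponded to roughly 35900000 to 39000000 fragments in each. It was read only near a value pooled over all libraries, so it cannot show that the depths were alike. Gjd2, the gene of connexin 36, had 14 to 17 FPKM in AAV2-shCX36 and 17.4 to 38.7 FPKM in AAV2-scramble (two-sided exact permutation test over 70 relabellings, p = 0.0286, the smallest that 4 against 4 libraries allow). In the limma fit across all genes used below, Gjd2 did not pass (log2 -0.70, adjusted p = 0.148). Markers of several retinal cell types were present beside those of ganglion cells. The 7 ganglion cell markers summed to 2449 to 2637 FPKM in AAV2-shCX36 and to 1444 to 2542 FPKM in AAV2-scramble. All 7 had a higher mean in AAV2-shCX36 (log2 0.20 to 0.49), with none passing in limma. Rbpms and Thy1 did not overlap between the groups, and 8.85% of all tested genes were higher without overlap. The 5 markers of Müller glia, the supporting cells that span the retina, summed to 252 to 410.0 FPKM in AAV2-shCX36 and to 453 to 792 FPKM in AAV2-scramble. Rlbp1, Glul and Aqp4 fell (log2 -1.43, -1.29 and -0.86, limma adjusted p = 0.0184, 0.00897 and 0.0430), while Slc1a3 (-1.06, adjusted p = 0.0524) and Apoe (0.26, adjusted p = 0.556) did not pass. The 5 cone markers, all of them cascade genes, summed to 1458 to 2291 FPKM in AAV2-shCX36 and to 2539 to 3887 FPKM in AAV2-scramble. Some libraries stood apart in other cell types. The 5 oligodendrocyte markers summed to 4.95 to 5.82 FPKM in AAV2-shCX36, against 41.6 and 136 FPKM in AAV2-scramble 1 and 2 and 5.84 and 5.61 FPKM in AAV2-scramble 3 and 4, where Mog or Mobp was at 0 in some libraries. The 5 microglia markers summed to 106 to 183 FPKM in AAV2-shCX36 and to 117 to 532 FPKM in AAV2-scramble, highest in AAV2-scramble 1 and 2. The 5 lens markers summed to 149 and 322 FPKM in AAV2-shCX36 1 and 4, 13.4 and 20.8 FPKM in AAV2-shCX36 2 and 3, and 0.153 to 15.2 FPKM in AAV2-scramble. The part of these differences in the results below was not tested, and the counts of genes that fell are also given with such libraries left out.

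All 10 cone cascade genes had a lower mean in AAV2-shCX36 than in AAV2-scramble, with log2 differences of -0.94 to -0.40 and a median of -0.64, beside a median of 0.01 over the 12858 genes tested, of which 47.6% had a log2 difference below 0. Each log2 difference subtracts the AAV2-scramble mean of log2(FPKM + 1) from the AAV2-shCX36 mean and comes from limma fitted on every gene with a mean of at least 1 FPKM, a filter that all 10 genes passed. In that fit 3 of the 10 fell, Opn1sw, Gngt2 and Pde6c, at a Benjamini-Hochberg adjusted p under 0.05, and none rose. Over all tested genes 2.52% fell and 2.24% rose by the same rule, 4.76% together. All 10 had an unadjusted limma p under 0.05 and a lower level, against 10.3% of all tested genes. The 4 AAV2-shCX36 libraries lay below all 4 AAV2-scramble libraries in 6 of the 10 genes, Opn1sw, Gnat2, Gngt2, Pde6c, Pde6h and Arr3, against 7.05% of all tested genes. Their summed FPKM made up 0.730% to 1.06% of all FPKM in AAV2-shCX36 libraries, against 1.21% to 1.72% in AAV2-scramble libraries. In such bulk RNA, fewer cones, a smaller share of cone RNA in the extract and less transcript per cone cannot be told apart.

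**Figure D1:**
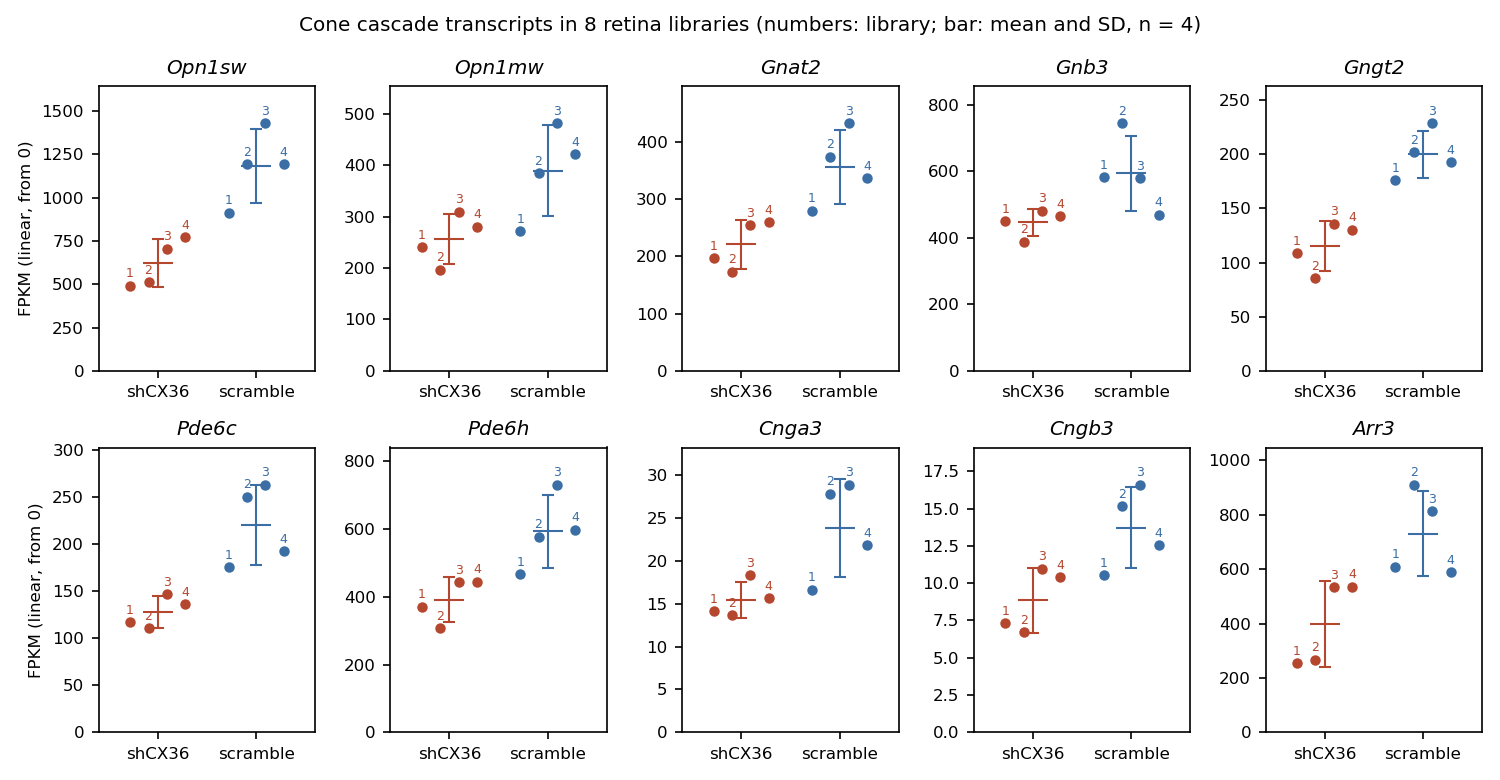
FPKM of each of the 10 cone cascade genes in each library, with AAV2-shCX36 in red on the left and AAV2-scramble in blue on the right of each panel. Points are libraries with their number, and the bar is the mean with its SD (n = 4). The groups do not overlap for Opn1sw, Gnat2, Gngt2, Pde6c, Pde6h and Arr3, and overlap for Opn1mw, Gnb3, Cnga3 and Cngb3.

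The opsins start the cascade. Opn1sw, the short-wavelength opsin (GRCm38 chromosome 6, 29376671 to 29388468, minus strand), was the most abundant of the 10 genes in every library. It had 493, 513, 705 and 770.4 FPKM in AAV2-shCX36 libraries 1 to 4, against 912, 1191, 1429 and 1194 FPKM in AAV2-scramble libraries 1 to 4. The highest AAV2-shCX36 library stayed below the lowest AAV2-scramble library. Opn1sw averaged 620.3 ± 138 FPKM in AAV2-shCX36 and 1182 ± 211 FPKM in AAV2-scramble (SD, n = 4 each), or 52.5% of the AAV2-scramble mean. It fell by 0.94 on the log2 scale (SE 0.18, limma adjusted p = 0.0256). Calu, a gene on the opposite strand with at most 34.7 FPKM, shares 397 of the 2557 exonic bases of Opn1sw, so without known strand a small part of its fragments could belong to either gene.

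Opn1mw, the medium-wavelength opsin (chromosome X, 74127464 to 74150760, plus strand), had 241, 197, 309 and 280.3 FPKM in AAV2-shCX36 and 271, 384, 481 and 421 FPKM in AAV2-scramble. AAV2-shCX36 3 and 4 lay above AAV2-scramble 1, so the groups overlapped. The mean was 257 ± 49.0 FPKM in AAV2-shCX36 and 389 ± 88.4 FPKM in AAV2-scramble (SD, n = 4 each), with a log2 difference of -0.59 (95% interval -1.02 to -0.16) that did not pass the threshold (limma adjusted p = 0.119).

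The balance between the opsins also differed in value. There were 2.04, 2.61, 2.28 and 2.75 Opn1sw FPKM for each Opn1mw FPKM in AAV2-shCX36 libraries 1 to 4, against 3.36, 3.10, 2.97 and 2.84 in AAV2-scramble libraries 1 to 4. All 4 AAV2-shCX36 ratios lay below all 4 AAV2-scramble ratios, and Opn1sw made up 67.2% to 73.3% of the opsin FPKM in AAV2-shCX36 and 73.9% to 77.1% in AAV2-scramble. The log2 ratio differed by -0.35 (two-sided exact permutation p = 0.0286, the smallest possible). It did not pass when adjusted over the 9 ratios reported here (adjusted exact p = 0.0857), and quantile normalization, chosen after seeing the data, gave -0.18 (exact permutation p = 0.143).

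The 250 bases before the RefSeq start of both opsin genes are shown as a description. Opn1sw passed the threshold and Opn1mw did not, but their ratio did not pass when adjusted. A different change in the opsins was therefore not established, and any part of these sequences in the levels was not tested. Capitals mark TAATC on either strand, the core of the sequence bound by Crx, the homeodomain factor of photoreceptors. The Opn1sw window is GRCm38.p6 chr6:29380514-29380763 on the minus strand, and the Opn1mw window is chrX:74127216-74127465 on the plus strand.
Opn1sw: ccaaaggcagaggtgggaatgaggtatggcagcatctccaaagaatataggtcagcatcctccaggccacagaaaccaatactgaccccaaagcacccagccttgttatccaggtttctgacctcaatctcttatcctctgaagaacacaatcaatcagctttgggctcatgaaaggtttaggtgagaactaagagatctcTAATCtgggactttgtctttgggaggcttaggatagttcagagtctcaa
Opn1mw: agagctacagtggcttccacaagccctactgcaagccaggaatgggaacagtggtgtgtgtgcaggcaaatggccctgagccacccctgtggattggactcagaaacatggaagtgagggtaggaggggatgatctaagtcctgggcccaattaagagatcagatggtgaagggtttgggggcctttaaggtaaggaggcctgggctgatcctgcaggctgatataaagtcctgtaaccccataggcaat
The Opn1sw window held 1 TAATC, starting 49 bases before the start, and 2 copies of AGGTCA, the half-site of nuclear receptors such as thyroid hormone receptors, starting 202 and 132 bases before it on opposite strands. Neither sequence was found in the Opn1mw window. Of 32851 such windows genome-wide, 19.8% held TAATC and 14% held AGGTCA on either strand, with 1.36% holding 2 or more AGGTCA. The motifs were chosen after the sequences had been seen, and a match is a description of letters.

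Transducin passes the signal from opsin to phosphodiesterase as a trimer. Gngt2, its cone gamma subunit (chromosome 11, 95837216 to 95845734, plus strand), had 109, 85.5, 136 and 131 FPKM in AAV2-shCX36 and 176, 202, 229 and 193 FPKM in AAV2-scramble. No library overlapped between the groups. Gngt2 fell by 0.81 on the log2 scale (SE 0.15, limma adjusted p = 0.0199), to 115 ± 23.0 FPKM in AAV2-shCX36 against 199.7 ± 22 FPKM in AAV2-scramble (SD, n = 4 each). Abi3, on the opposite strand with at most 6.67 FPKM, shares 234 of its 1877 exonic bases.

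Gnat2, the alpha subunit that carries the GTP switch (chromosome 3, 108092789 to 108101432, plus strand), had 197, 173, 255 and 259 FPKM in AAV2-shCX36 and 279.9, 374, 433 and 337 FPKM in AAV2-scramble. The groups did not overlap, and the log2 difference of -0.69 (95% interval -1.06 to -0.31) lay just outside the threshold (limma adjusted p = 0.0503). The window before its start, chr3:108092816-108093065 on the plus strand, is shown as the only window among the members with the longer Crx-type sequence TAATCC.
Gnat2: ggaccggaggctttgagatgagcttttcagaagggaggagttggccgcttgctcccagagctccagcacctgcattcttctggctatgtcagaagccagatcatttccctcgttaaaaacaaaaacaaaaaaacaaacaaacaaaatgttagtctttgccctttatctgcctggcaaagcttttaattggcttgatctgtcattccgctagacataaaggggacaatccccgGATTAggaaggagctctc
That match reads GGATTA on the printed strand, starting 19 bases before the start, and overlaps the capitals. TAATCC occurred in 6.25% of the windows genome-wide.

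Gnb3, the beta subunit (chromosome 6, 124834240 to 124840275, minus strand), showed the smallest difference of the 10 and did not pass the threshold. Its levels were 450.0, 389, 481 and 465 FPKM in AAV2-shCX36 and 582, 744, 579 and 469 FPKM in AAV2-scramble, with a log2 difference of -0.40 (95% interval -0.71 to -0.09, limma adjusted p = 0.137). AAV2-scramble 4 lay among the AAV2-shCX36 libraries. In the mouse retina Gnb3 is also used by ON bipolar cells, the neurons that relay the onset of light. The 6 bipolar markers summed to 99.4 to 165 FPKM in AAV2-shCX36, against 343 and 344 FPKM in AAV2-scramble 1 and 2 and 68.4 and 104 FPKM in AAV2-scramble 3 and 4, with none of the 6 passing and none at 0. The log2 difference of Gnb3 was -0.23 when AAV2-scramble 1 and 2 were left out (limma adjusted p = 0.247). It was -0.56, past the threshold, when AAV2-scramble 3 and 4 were left out (limma adjusted p = 0.0170). The part of bipolar transcript in the Gnb3 values was not tested.

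Phosphodiesterase hydrolyses cyclic GMP once transducin has displaced its inhibitor. Pde6c, the catalytic subunit of cones (chromosome 19, 38132781 to 38183958, plus strand), had 117, 110.4, 147 and 136 FPKM in AAV2-shCX36 and 175, 250.2, 263 and 193 FPKM in AAV2-scramble. The groups stood apart, and Pde6c fell by 0.77 on the log2 scale (SE 0.15, limma adjusted p = 0.0226), to 128 ± 16.8 FPKM against 220.3 ± 42.8 FPKM in AAV2-scramble (SD, n = 4 each). Pde6h, the inhibitory subunit (chromosome 6, 136923832 to 136968865, plus strand), had 371, 308, 443 and 445 FPKM in AAV2-shCX36 and 466, 577, 730.2 and 598 FPKM in AAV2-scramble. These groups did not overlap either, by a narrow gap between AAV2-shCX36 4 and AAV2-scramble 1, and the log2 difference of -0.60 (95% interval -0.95 to -0.24) did not pass (limma adjusted p = 0.0702). There were 2.79 to 3.27 Pde6h FPKM for each Pde6c FPKM in AAV2-shCX36 and 2.31 to 3.10 in AAV2-scramble, and these ranges overlapped.

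The cyclic nucleotide-gated channel carries the dark current of the cone and was the least abundant part of the cascade. Cnga3, its main subunit (chromosome 1, 37214434 to 37263384, plus strand), had 14.1, 13.7, 18.3 and 15.7 FPKM in AAV2-shCX36 and 16.6, 27.8, 28.9 and 21.8 FPKM in AAV2-scramble. Cngb3, the modulatory subunit (chromosome 4, 19280850 to 19510623, plus strand), had 7.31, 6.70, 11 and 10.4 FPKM in AAV2-shCX36 and 10.6, 15.2, 16.6 and 12.6 FPKM in AAV2-scramble. In both genes AAV2-shCX36 3 lay above AAV2-scramble 1, and the groups overlapped by that pair alone. The log2 difference was -0.57 (95% interval -0.95 to -0.19, limma adjusted p = 0.0911) for Cnga3 and -0.59 (95% interval -0.99 to -0.19, limma adjusted p = 0.10) for Cngb3, so neither passed. The ratio of Cnga3 to Cngb3 was 1.5 to 2.04 in AAV2-shCX36 and 1.57 to 1.83 in AAV2-scramble, and these ranges overlapped.

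Arr3, the cone arrestin (chromosome X, 100605497 to 100618493, plus strand), had the largest log2 difference of the 10, -0.94 (95% interval -1.58 to -0.31), and the largest standard error (0.28). It had 254, 267, 533 and 536 FPKM in AAV2-shCX36 and 609, 911, 813 and 589 FPKM in AAV2-scramble. AAV2-shCX36 1 and 2 had about the same level and AAV2-shCX36 3 and 4 had another, higher level close to AAV2-scramble 1 and 4. The standard deviation was 39.9% of the mean in AAV2-shCX36 and 21.5% in AAV2-scramble, and Arr3 did not pass (limma adjusted p = 0.0956) although its groups did not overlap. The window before its start, chrX:100605247-100605496 on the plus strand, is shown because it repeats TAATC.
Arr3: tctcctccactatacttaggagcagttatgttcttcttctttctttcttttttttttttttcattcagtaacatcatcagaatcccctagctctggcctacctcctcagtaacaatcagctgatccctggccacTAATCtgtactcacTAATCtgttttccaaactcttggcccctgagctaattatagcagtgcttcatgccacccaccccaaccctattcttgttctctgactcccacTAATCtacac
It held 3 copies, starting 116, 102 and 10 bases before the start on the printed strand, and 0.554% of windows genome-wide held 3 or more on either strand. Windows were at hand for 6 of the 10 genes, and 3 of these held TAATC.

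The cascade kept a similar order of levels in both groups. In AAV2-shCX36 the means ran from Opn1sw at 620.3 FPKM through Gnb3 at 446, Arr3 at 397, Pde6h at 392, Opn1mw at 257, Gnat2 at 221, Pde6c at 128, Gngt2 at 115 and Cnga3 at 15.4 to Cngb3 at 8.85 FPKM. In AAV2-scramble the order was the same except that Arr3, at 731 FPKM, stood above Gnb3 at 594 and Pde6h at 593 FPKM. Neighbours within each other's SD in both groups were Opn1mw and Gnat2, and Pde6c and Gngt2.

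The 10 genes also varied together within each group. AAV2-shCX36 1 and 2 held the lowest and next lowest value of their group for all 10 genes, AAV2-scramble 3 was highest in its group for 8 of 10, and AAV2-scramble 1 was lowest for 8 of 10. The exceptions were Gnb3 and Arr3, for which AAV2-scramble 2 was highest and AAV2-scramble 4 lowest. Over the 45 pairs of genes, Pearson's r of log2(FPKM + 1) across the 8 libraries had a median of 0.94 (range 0.61 to 0.99), and 0.84 (range 0.16 to 0.98) once the group means had been removed. Gnat2 followed the others most closely within groups (median r 0.92) and Gnb3 least (0.45). These correlations are a description, since all genes share the same libraries and their scaling.

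The calls depended on single libraries while the direction did not: none of the 10 genes changed sign in the 8 fits that left out 1 library, the 3 that left out a pair or the 11 with other settings. Leaving out AAV2-shCX36 libraries 1 to 4 in turn gave 0, 1, 2 and 2 genes that fell, and leaving out AAV2-scramble libraries 1 to 4 in turn gave 7, 3, 0 and 4. Over all tested genes, 12810 to 12910 in these fits, the numbers that fell were 84, 70, 107 and 168, and then 292, 182, 111 and 591. With a pair left out the number was 0 for AAV2-shCX36 1 and 4, 7 for AAV2-scramble 1 and 2, and 4 for AAV2-scramble 3 and 4. Over all tested genes 28 of 12800, 393 of 12763 and 1914 of 12948 fell in these 3 fits. In the fit lacking AAV2-scramble 1 and 2, the 7 were Opn1sw, Opn1mw, Gnat2, Gngt2, Pde6c, Pde6h and Cnga3, with log2 differences of -1.10, -0.83, -0.81, -0.88, -0.82, -0.77 and -0.68, and Gnb3, Cngb3 and Arr3 had -0.23, -0.68 and -0.89 there. In the fit lacking AAV2-scramble 3 and 4, the 4 were Opn1sw, Gnb3, Gngt2 and Pde6c, and the 10 differences ran from -0.995 for Arr3 to -0.35 for Opn1mw. Gngt2 passed in 6 of the 8 single omissions, and Opn1sw and Pde6c in 4 each, with highest adjusted p of 0.0669, 0.0887 and 0.0793. Arr3 and Cngb3 passed in none (lowest adjusted p 0.0659 and 0.0785).

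**Figure D2:**
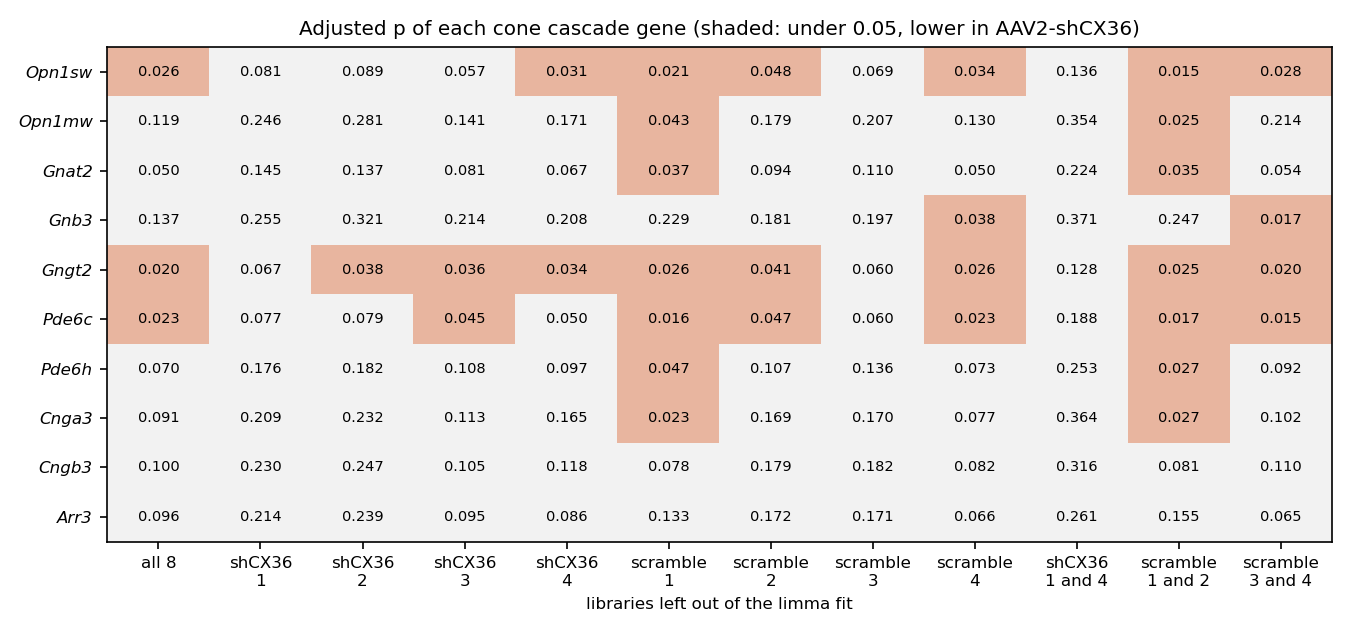
Adjusted p from limma for each cone cascade gene (rows) with all 8 libraries and with the libraries named below each column left out. Shaded cells are under 0.05, all with a lower level in AAV2-shCX36. A column has 0 shaded cells for AAV2-shCX36 1, AAV2-scramble 3 and the pair AAV2-shCX36 1 and 4, and 7 for AAV2-scramble 1 and the pair AAV2-scramble 1 and 2.

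The rod counterparts had log2 differences of -0.83 to -0.11. Among 9 counterparts 5 passed as lower and 0 as higher, beside 2.52% and 2.24% of all tested genes. Their median log2 difference was -0.67, and all 9 had a lower mean in AAV2-shCX36. Gnat1, the rod transducin alpha subunit, fell by 0.82 and Pde6g, the rod phosphodiesterase inhibitor, by 0.83 on the log2 scale (limma adjusted p = 0.0206 and 0.0144). Gngt1, Pde6a and Cngb1 also fell (log2 -0.66, -0.70 and -0.67). Pde6b (-0.67, limma adjusted p = 0.0515) and Cnga1 (-0.56, limma adjusted p = 0.0805) did not pass. Neither did Gnb1 (-0.11, limma adjusted p = 0.647) or Sag, the rod arrestin (-0.17, limma adjusted p = 0.686). Which cells the Gnb1 transcript came from was not tested. The number that fell was 2 when AAV2-shCX36 1, AAV2-shCX36 3 or AAV2-scramble 3 was left out, 3 for AAV2-shCX36 2 and 7 for AAV2-scramble 1. With pairs left out it was 1 for AAV2-shCX36 1 and 4, 8 for AAV2-scramble 1 and 2, and 5 for AAV2-scramble 3 and 4. Over all tested genes 28, 393 and 1914 fell without those pairs.

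**Figure D3:**
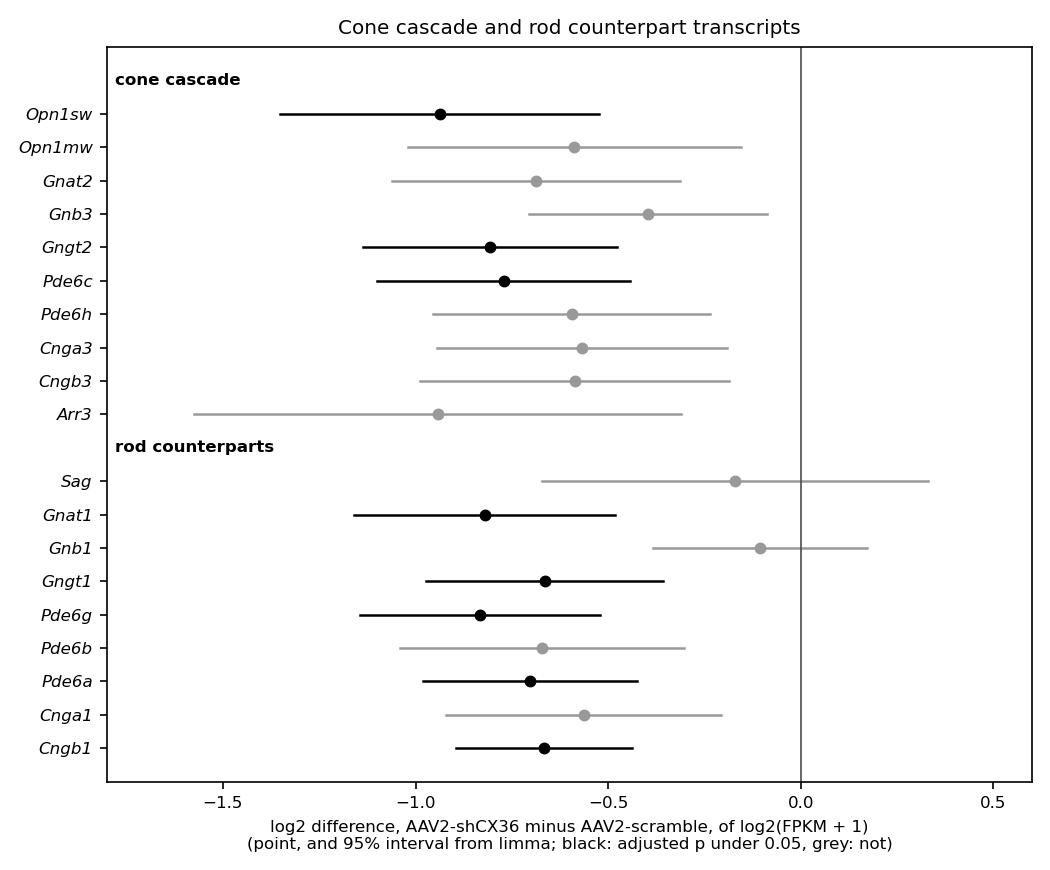
Log2 difference, AAV2-shCX36 minus AAV2-scramble, of the 10 cone cascade genes (top) and 9 rod counterparts (bottom), with 95% intervals from limma. Black marks an adjusted p under 0.05 (3 cone and 5 rod genes) and grey the others; points run from -0.94 to -0.40 in the cone genes and from -0.83 to -0.11 in the rod genes.

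For 8 pairs, the cone gene was also set against its rod paralog within every library, which removes the scaling of the library. None of the 8 ratios passed an exact permutation test adjusted over the 8 pairs, and 2 had an unadjusted exact p of 0.0286. The Arr3 to Sag log2 ratio was 0.18, 0.52, 0.61 and 0.56 in AAV2-shCX36 and 1.31, 1.59, 1.16 and 0.88 in AAV2-scramble, a difference of -0.77 (adjusted exact p = 0.114). Sag itself had 224, 186, 348 and 364 FPKM in AAV2-shCX36 and 244, 301, 363 and 319 FPKM in AAV2-scramble, so its groups overlapped where those of Arr3 did not. The Pde6h to Pde6g log2 ratio was 1.13, 1.10, 1.24 and 1.13 in AAV2-shCX36 and 0.88, 0.96, 0.98 and 0.84 in AAV2-scramble, a difference of 0.24 (adjusted exact p = 0.114). The other 6 ratios differed by -0.29 to 0.13 with overlapping groups (unadjusted exact p of 0.143 to 1.0). With 4 against 4 libraries, at least 5 of the 8 pairs would have to reach the smallest exact p for any to pass, so these ratios do not show that cone and rod genes changed alike.

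**Figure D4:**
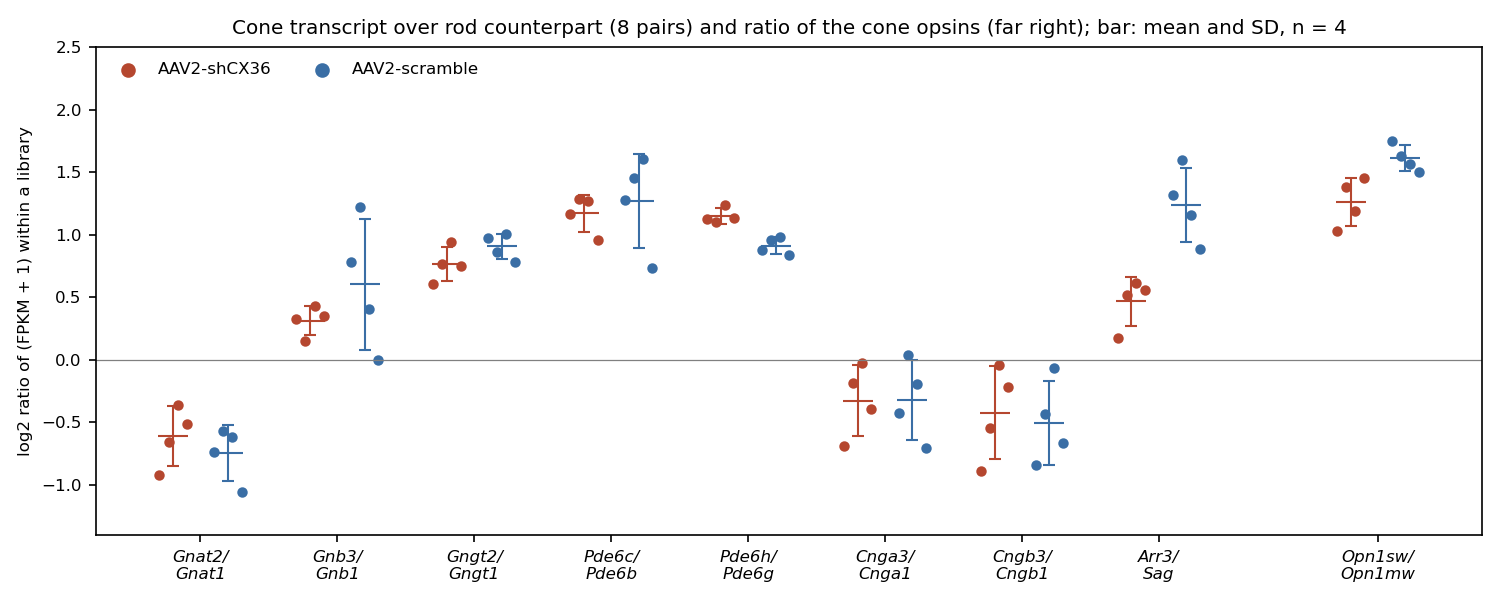
Log2 ratio of (FPKM + 1) of a cone gene over its rod paralog within a library, for 8 pairs, and of Opn1sw over Opn1mw at the far right. Points are libraries, AAV2-shCX36 in red left of AAV2-scramble in blue, with mean and SD (n = 4). The groups separate in Arr3/Sag, Pde6h/Pde6g and Opn1sw/Opn1mw and overlap in the other 6.

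Among the genes that reset the cascade, feed calcium back on it or set the membrane potential, 12 of 14 fell and none rose, with a median log2 difference of -0.68. Over all tested genes 2.52% fell and 2.24% rose. Of the 14, single omissions gave 4 to 13, lowest for AAV2-shCX36 1, AAV2-shCX36 2 and AAV2-scramble 3 (4 each) and 6 and 7 for AAV2-scramble 2 and AAV2-shCX36 3. Leaving out AAV2-shCX36 1 and 4, AAV2-scramble 1 and 2 or AAV2-scramble 3 and 4 gave 0, 13 and 11. In the fits without those pairs 28, 393 and 1914 of all tested genes fell. Rgs9bp is the membrane anchor of the complex that shuts off transducin. It fell to 33.3 ± 4.11 FPKM in AAV2-shCX36, against 58.6 ± 5.94 FPKM in AAV2-scramble (SD, n = 4 each, limma adjusted p = 0.00589). In the same list Gnb5 fell by 0.30 on the log2 scale (limma adjusted p = 0.0416). Rgs9 had a log2 difference of -0.42 with overlapping groups and did not pass (limma adjusted p = 0.107). Grk1, the opsin kinase used by both mouse rods and cones, fell by 0.74 and Rcvrn, its calcium-dependent inhibitor recoverin, by 0.85 on the log2 scale (limma adjusted p = 0.0256 and 0.0148). Guca1a, an activator of guanylate cyclase, fell by 0.83, and the cyclase gene Gucy2e by 0.49 (limma adjusted p = 0.0314 and 0.0201). Slc24a2, a gene of the sodium, calcium and potassium exchangers, had 28 ± 2.12 FPKM in AAV2-shCX36 and 28.3 ± 1.42 FPKM in AAV2-scramble. Its log2 difference was -0.02 (95% interval -0.17 to 0.14), and the sign turned when some libraries were left out. Which cells the Slc24a2 transcript came from was not tested. Its rod paralog Slc24a1 fell by 0.67 (limma adjusted p = 0.0434). Of 3 further cone-enriched genes, Kcne2, an accessory subunit of potassium channels, and Otop3, of a proton channel family, fell by 0.93 and 0.60 on the log2 scale (limma adjusted p = 0.0239 and 0.0372). Ccdc136 had a log2 difference of -0.55 and did not pass (limma adjusted p = 0.0585). Of these 3, none passed when AAV2-shCX36 1, AAV2-shCX36 2, AAV2-scramble 3 or the pair AAV2-shCX36 1 and 4 was left out. There was 1 for AAV2-shCX36 4, AAV2-scramble 2 or the pair AAV2-scramble 1 and 2, and all 3 fell for AAV2-scramble 4 or the pair AAV2-scramble 3 and 4.

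Among 9 photoreceptor transcription factors 5 fell and none rose, with a median of -0.46, while 2.52% of all tested genes fell and 2.24% rose. Crx fell to 119.6 ± 13.4 FPKM in AAV2-shCX36, against 196 ± 21.6 FPKM in AAV2-scramble (log2 -0.71, limma adjusted p = 0.0108). Sall3, which is needed for Opn1sw expression in mouse cones, had 2.81, 2.56, 3.44 and 3.24 FPKM in AAV2-shCX36 and 4.57, 5.41, 5.64 and 5.15 FPKM in AAV2-scramble (log2 -0.63, limma adjusted p = 0.0130). Esrrb, best known from rods, fell by 0.92, and Rorb and Mef2d by 0.40 and 0.32 on the log2 scale. Thrb, the thyroid hormone receptor gene required for Opn1mw, had 6.67 ± 0.849 FPKM in AAV2-shCX36 and 9.54 ± 1.42 FPKM in AAV2-scramble and did not pass (log2 -0.46, limma adjusted p = 0.0637). Rxrg, its partner receptor gene, had a log2 difference of -0.05 (95% interval -0.27 to 0.16) that turned in sign without AAV2-scramble 3, and Otx2 and Neurod1 did not pass (limma adjusted p = 0.214 and 0.0551). The number that fell was 3 to 6 with single omissions, 3 for AAV2-shCX36 1 or 2, and 0, 6 and 7 without AAV2-shCX36 1 and 4, AAV2-scramble 1 and 2 or AAV2-scramble 3 and 4. Without those pairs 28, 393 and 1914 of all tested genes fell. Nrl and Nr2e3, rod-determining factors listed here as rod markers and not among the 9, fell by 1.05 and 0.98 on the log2 scale (limma adjusted p = 0.0164 and 0.00664).

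**Figure D5:**
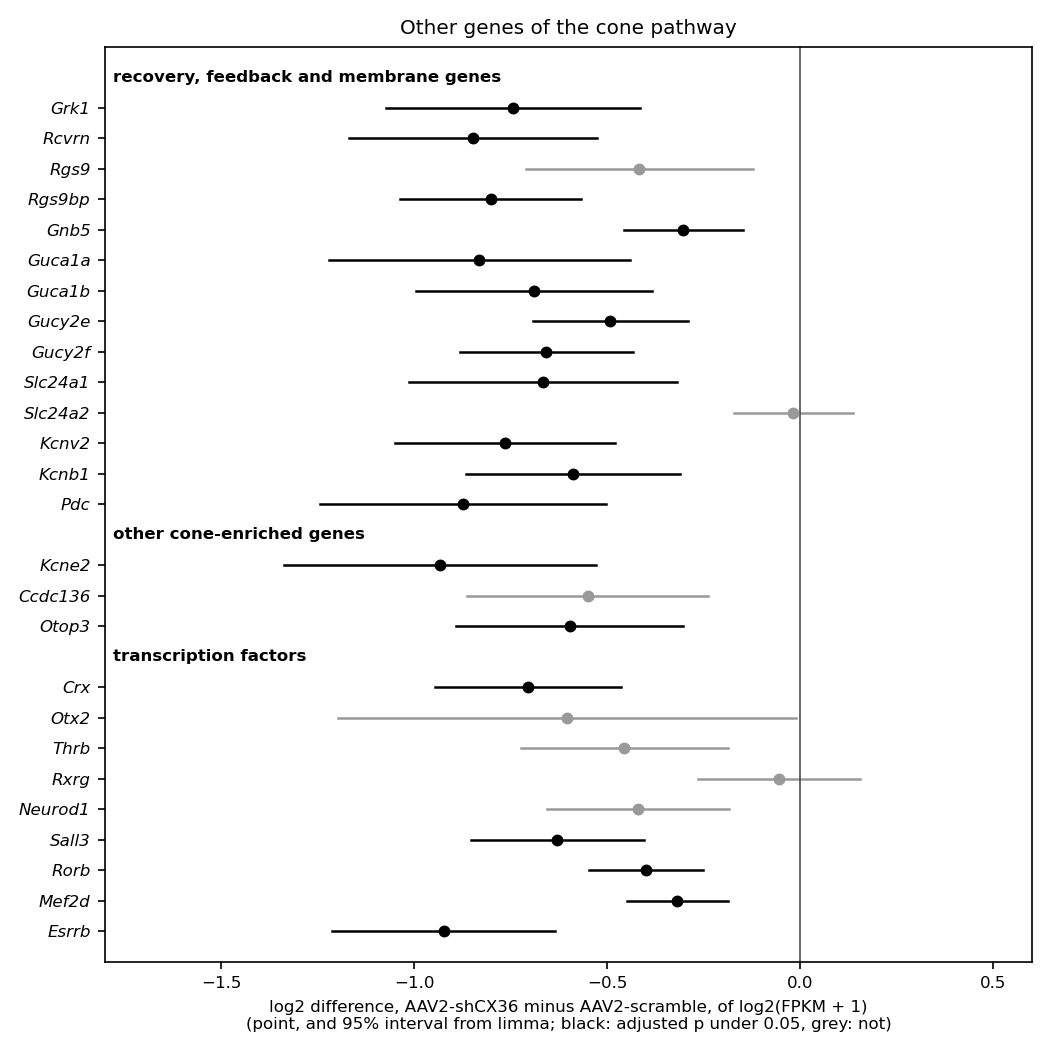
Log2 difference, AAV2-shCX36 minus AAV2-scramble, with 95% intervals from limma, of other genes in 3 groups. The groups are recovery, feedback and membrane genes, cone-enriched genes, and photoreceptor transcription factors. Some are shared with rods, such as Grk1, or best known from rods, such as Slc24a1 and Esrrb. Black marks an adjusted p under 0.05; Slc24a2 (-0.02) and Rxrg (-0.05) sit on the zero line, while Kcne2 (-0.93) and Esrrb (-0.92) lie farthest to the left.

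The genes whose profile over the 8 libraries was most like the mean of the 10 standardised cone profiles were Mtfr1 (Pearson's r 0.99), Thrb, Ipmk, Mapk4, Tlcd5, Tulp1, Lrit3, ND3, Ppm1n and D16Ertd472e (r 0.98 to 0.99). The r is a description over 8 libraries in which the group difference itself contributes, so a lower level in AAV2-shCX36 was part of the selection. Thrb ranked second of 12848 other tested genes. Of the 9 rod counterparts the closest was Pde6g (r 0.95, rank 77), and Gjd2 had r 0.47. Ranks of the recovery, feedback and membrane genes ran from 12 for Gucy2e (r 0.98) to 5431 for Slc24a2 (r 0.07). Grk1, used by both rods and cones, ranked 73 (r 0.95).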

How the data were processed

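Total RNA of mouse retina was extracted with an RNeasy Micro Kit and sequenced as paired-end reads on an Illumina NovaSeq instrument, per the labels' protocols. The submitters' processing notes name fastp, HISAT2, HTSeq, R 3.2.0 and DESeq2 and the builds GRCm38 and mm10. The strand setting, gene annotation and length model are not given in the sources used here. The authors deposited FPKM for 24860 symbols in 8 libraries, with no raw counts among the values used, so no count model was run. Every column matched a sample by name (0 unmatched). An approximate depth came from the step between low FPKM values of single-exon genes.

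Groups came from sample titles. limma 3.58.1 (R 4.3.3; lmFit, eBayes with trend) was run on log2(FPKM + 1) after genes averaging under 1 FPKM had been dropped, which left 12858. Calls are Benjamini-Hochberg adjusted p under 0.05 over all of them. Single ratios and Gjd2 had two-sided exact permutation tests over 70 relabellings. The rule for the 10 genes uses symbols alone, but genes, lists and tests were chosen with earlier results of these data known. Cngb1, listed under both, is counted with the rod genes. Named genes were the 10 members, Gjd2, the rod, pathway, cone-enriched and factor lists, and the 10 genes most like the members' mean profile; marker lists described the libraries. Some results of these lists are not reported here, and list counts and adjustments over ratios cover the reported items. Positions are from GENCODE vM21 (GRCm38), which held all 10 members, and promoter windows from RefSeq (GRCm38.p6). Alternatives were other pseudocounts, filters, scalings and variance models, library weights, a replicate block and libraries left out. The fit was also tested on simulated data. Python 3.11.15, pandas 2.3.3, numpy 2.4.6, scipy 1.17.1 and matplotlib 3.10.9 made the tables and figures.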

Additional observations from a re-analysis of the deposited data

Results flagged for a closer look

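Gngt1, the rod transducin gamma subunit gene, had 89.3 FPKM in AAV2-scramble 1, while the other AAV2-scramble libraries lay at 110.4 to 113 FPKM. Kcnv2, a potassium channel subunit gene of photoreceptors, had 13.7 FPKM in AAV2-shCX36 2, while the other AAV2-shCX36 libraries lay at 18.2 to 18.7 FPKM. In each case the gap to the nearest library was above Dixon's critical share of the range of the group. Chance gives about 1 such library in 20 groups of 4, and 110 groups were screened, so these 2 are fewer than chance gives. No library of any of the 10 cone cascade genes stood apart in this way.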

How the results depend on the processing

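All 10 cone cascade genes kept their direction in every alternative fit. The count that fell, 3, was 5 with quantile normalization and 0 with no filter on low values, where 24860 genes were adjusted over; single omissions gave 0 to 7, and omitted pairs gave 0 without AAV2-shCX36 1 and 4, and 7 without AAV2-scramble 1 and 2. The count over all genes, 612, was 311 with no filter, 171 to 1166 with single omissions, and 96, 958 and 3456 without AAV2-shCX36 1 and 4, AAV2-scramble 1 and 2, and AAV2-scramble 3 and 4. With the replicate number as a replicate block, 2 members and 164 genes were called. With that block the rod, pathway, cone-enriched and factor lists had 3, 5, 1 and 1 genes that fell, and with no filter 3, 5, 0 and 5. Same-numbered libraries did not deviate together (r 0.13, -0.30, 0.23 and -0.27), so the numbers are not treated as pairs. The Gjd2 difference, -0.70, ranged from -0.88 to -0.51 with single omissions, past the threshold only without an AAV2-scramble library, and was -0.81, -0.19 and -1.21 without the same pairs, which cannot reach an exact p of 0.05. The Opn1sw to Opn1mw log2 ratio difference, -0.35, was -0.18 under quantile normalization, -0.41 to -0.27 with single omissions (exact p 0.0571 without any AAV2-scramble library), and -0.33, -0.27 and -0.43 without those pairs. No cone to rod ratio passed in any alternative, an outcome that the number of libraries largely fixes. Signs turned for Sag without AAV2-shCX36 2 (single omissions -0.32 to 0.0064), Rxrg without AAV2-scramble 3 (-0.11 to 0.022), and Slc24a2 without AAV2-shCX36 4 or AAV2-scramble 3 (0.0088; range -0.047 to 0.028). Without AAV2-scramble 3 and 4 they turned for Gnb1 (0.12), Rxrg (0.11) and Slc24a2 (0.039), and without AAV2-shCX36 1 and 4 for Slc24a2 (0.066). Where no construction of the alternative shows it, the cause was not tested. FPKM keeps no counts, so no counting interval is given.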

Other observations

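Horizontal cells, which receive input from cones, had 4 markers measured, of which Calb1 (calbindin) fell and the other 3 had log2 differences of -0.46 to -0.34 without passing in limma. The markers summed to 125 to 176 FPKM in AAV2-shCX36 and to 197 to 209.7 FPKM in AAV2-scramble, and these sums did not overlap. The 5 amacrine markers had a median log2 difference of 0.00, with Pax6 rising (log2 0.24, limma adjusted p = 0.0380).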
